A study of Mus musculus with 6 samples.

Results

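The expression of 10 genes of the Bcl2 family was examined in LβT2 cells, an immortalized mouse cell line derived from pituitary gonadotropes, the cells that make the gonadotropic hormones. These members, 10 of 47069 genes in the count table, were chosen by symbol, and each symbol was matched to its gene identifier through the GENCODE M21 annotation of the GRCm38 mouse genome. They are the survival genes *Bcl2*, *Bcl2l1* and *Mcl1*, the pore-forming genes *Bax* and *Bak1*, and the BH3-only genes *Bcl2l11*, *Bbc3*, *Pmaip1*, *Bad* and *Bid*. Bulk RNA sequencing was performed on 3 libraries of fresh cells and 3 libraries of cells kept in RNA-Best, a reagent that preserves intact cells for later RNA analysis. All cells, fresh cells included, were at passage 14, were seeded at 350000 per well, were cultured over 2 days and received gonadotropin-releasing hormone (GnRH) at 2 nM over 40 min. After trypsin, fresh cells were lysed at once, whereas RNA-Best cells were held in the reagent at 4°C over a minimum of 4 days before lysis. No library without GnRH was part of the comparison, so that the values describe preservation in stimulated cells of 1 line and not the response to the hormone.

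Proteins of the Bcl2 family decide whether the outer mitochondrial membrane stays closed. Bax and Bak1 open the membrane and release cytochrome c, which starts the caspase cascade of apoptosis. Bcl2, Bcl2l1 (Bcl-xL) and Mcl1 hold them in check, and the BH3-only proteins Bcl2l11 (Bim), Bbc3 (Puma), Pmaip1 (Noxa), Bad and Bid relieve that block or act on Bax and Bak1 directly. Much of this control is exerted on the proteins, by binding, phosphorylation and turnover, and is not seen in RNA levels.

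What the family shares is the BH3 core, a leucine followed after 3 residues by a small residue and an aspartate. A search of the longest coding sequence of each member in GENCODE M21 (GRCm38) gave 1 match in each member other than *Pmaip1*, which had 2. The matches of the 9 other members are shown because the core is a feature that the group shares, and those of *Pmaip1* are not shown here. In each, the 6 codons of the core are in capitals, with 7 codons before and 4 after it, read 5′ to 3′ on the coding strand, and each stretch of 51 bases lies within 1 exon.
*Bcl2*, chr1:106712572-106712622, minus strand: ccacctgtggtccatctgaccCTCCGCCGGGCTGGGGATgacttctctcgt
*Bcl2l1*, chr2:152829694-152829744, minus strand: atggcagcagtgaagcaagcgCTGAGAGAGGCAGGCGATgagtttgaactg
*Mcl1*, chr3:95659415-95659465, plus strand: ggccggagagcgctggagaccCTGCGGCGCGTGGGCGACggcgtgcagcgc
*Bax*, chr7:45465994-45466044, minus strand: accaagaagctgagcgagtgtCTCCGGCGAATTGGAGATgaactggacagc
*Bak1*, chr17:27022528-27022578, minus strand: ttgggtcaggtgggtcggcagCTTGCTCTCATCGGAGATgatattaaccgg
*Bcl2l11*, chr2:128147129-128147179, plus strand: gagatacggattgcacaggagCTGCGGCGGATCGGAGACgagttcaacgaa
*Bbc3*, chr7:16313752-16313802, plus strand: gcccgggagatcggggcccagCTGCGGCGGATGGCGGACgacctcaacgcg
*Bad*, chr19:6950771-6950821, plus strand: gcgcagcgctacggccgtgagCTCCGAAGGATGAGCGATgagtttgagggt
*Bid*, chr6:120897286-120897336, minus strand: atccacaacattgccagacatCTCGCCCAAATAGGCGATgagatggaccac
The GC content of the 9 stretches shown ranged from 51.0% in *Bid* to 80.4% in *Mcl1*.

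Fresh and RNA-Best libraries differed in depth. They held 14477304 to 47438746 counts in fresh cells and 4909418 to 11999363 in RNA-Best cells, with no overlap in depth, so that counting error was larger in every RNA-Best library. Levels are given as CPM, the counts of a gene per 1000000 counts of its library. Where a gene had no count, up to 3 counts remain possible by counting error alone, or 0.0632 to 0.611 CPM depending on the library. Of the gonadotrope markers, *Cga*, *Lhb*, *Gnrhr* and *Nr5a1* were counted in every library, while *Fshb* had 0 counts, and the 5 markers together had 2379 to 2404 CPM in fresh and 1971 to 2014 CPM in RNA-Best libraries. They did not move together, since *Cga* and *Nr5a1* were lower in RNA-Best (log2 fold change of -0.36 and -0.21), *Gnrhr* was higher (0.43) and *Lhb* did not pass (0.03), by edgeR. In the fits with an offset for exonic length or GC content, given below, *Lhb* had 0.18 and 0.15 (edgeR adjusted p = 0.0204 and 0.0508). There *Cga* had -0.22 and -0.45, *Nr5a1* -0.23 and -0.10 and *Gnrhr* 0.46 and 0.27, all called. Markers of other pituitary cells (*Gh*, *Prl*, *Pomc*, *Tshb* and *Pou1f1*) summed to 0.765 to 1.11 CPM in fresh and 1.22 to 2.28 CPM in RNA-Best libraries, nearly all of it *Tshb*. With only 6 to 44 counts in a library, *Tshb* was higher in RNA-Best, at a log2 fold change of 0.91 (edgeR adjusted p = 0.00350). It was also called with the offsets for length (0.88) and GC content (0.78). The labels do not tell whether each library had a culture of its own, so that the p-values below measure the spread between libraries, which may be technical.

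Among the survival genes, *Bcl2l1* was lower in RNA-Best, with a fitted level that fell by 10.5%, and *Bcl2* and *Mcl1* did not pass the test. *Bcl2*, the founding member, lies on chromosome 1 from 106538178 to 106714274. It had 30.2, 30.9 and 30.5 CPM in the fresh libraries and 29.7, 30.6 and 30.9 CPM in the RNA-Best libraries. The groups overlapped, and the log2 fold change, RNA-Best minus fresh, was -0.02 (standard error 0.06, edgeR adjusted p = 0.797). The 95% interval of the difference ran from -9.10% to 6.97%. *Bcl2l1*, which encodes the survival protein Bcl-xL, lies on chromosome 2 from 152780668 to 152831728. It had 100.3, 101.2 and 99.4 CPM in fresh and 93.6, 85.8 and 91.1 CPM in RNA-Best libraries. Every RNA-Best library was below every fresh library, with a log2 fold change of -0.16 (standard error 0.04, edgeR adjusted p = 0.000708). *Mcl1*, whose protein and mRNA turn over quickly, lies on chromosome 3 from 95658788 to 95663176. It had 69.6, 71.2 and 67.5 CPM in fresh and 72.7, 75.6 and 72.8 CPM in RNA-Best libraries. All RNA-Best libraries were above all fresh libraries, but the log2 fold change of 0.06 (standard error 0.04) did not pass (edgeR adjusted p = 0.258), with an interval from -1.86% to 10.4%. In bulk RNA, fewer cells with a transcript and less of it in each cell cannot be told apart, and this holds for each difference given here.

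Both pore-forming genes were lower in RNA-Best, where the fitted level of *Bax* fell by 22.6% and that of *Bak1* fell by 8.42%. *Bax*, on chromosome 7 from 45461697 to 45466898, had 123.0, 123.0 and 124.6 CPM in fresh and 94.6, 92.3 and 99.9 CPM in RNA-Best libraries. The gap between the groups was far wider than the spread in either, with a log2 fold change of -0.37 (standard error 0.04, edgeR adjusted p = 2.52e-10). *Bak1*, on chromosome 17 from 27019810 to 27029009, had 70.1, 73.5 and 72.0 CPM in fresh and 61.9, 67.4 and 69.6 CPM in RNA-Best libraries. The highest RNA-Best library lay just under the lowest fresh library, and the log2 fold change was -0.13 (standard error 0.05, edgeR adjusted p = 0.0186). This call was lost without RNA-Best replicate 1, the lowest of its group, at -0.07 (edgeR adjusted p = 0.247), and without fresh replicate 2, at -0.11 (edgeR adjusted p = 0.0751). It was also lost with DESeq2's Wald test at -0.13 (adjusted p = 0.0749), so that the difference in *Bak1* is less firm than that in *Bax*.

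**Figure D1:**
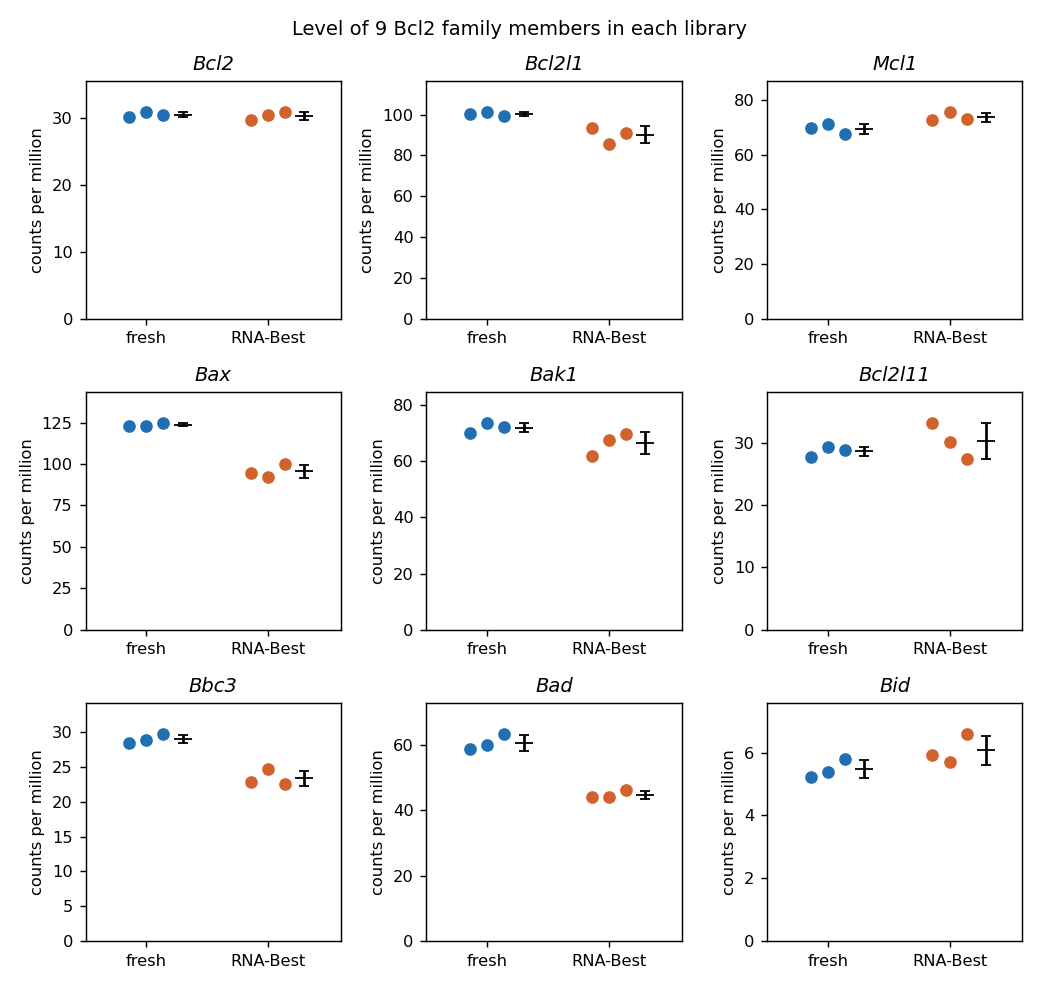
CPM (y axis, starting at 0) of each of the 9 members with counts in all libraries, with 1 point for each of the 3 fresh (blue) and 3 RNA-Best (orange) libraries and the mean ± SD of each group as a black bar. *Bax*, *Bad*, *Bbc3*, *Bcl2l1* and *Bak1* show every RNA-Best library below every fresh library, *Mcl1* shows the opposite order, and *Bcl2*, *Bcl2l11* and *Bid* overlap.

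Of the BH3-only genes, *Bad* and *Bbc3* were lower in RNA-Best, *Bcl2l11* and *Bid* did not pass, and *Pmaip1* was almost not counted. *Bad*, which is held inactive by 14-3-3 proteins when growth factors phosphorylate it, lies on chromosome 19 from 6941861 to 6951899. It had 58.6, 59.9 and 63.2 CPM in fresh and 43.9, 44.0 and 46.1 CPM in RNA-Best libraries. The log2 fold change of -0.43 (standard error 0.05, edgeR adjusted p = 2.89e-09), by which its level fell by 26.0%, had the largest size among the 9 members tested. *Bbc3*, a classical target of p53, lies on chromosome 7 from 16308393 to 16318205. It had 28.5, 28.8 and 29.7 CPM in fresh and 22.9, 24.6 and 22.5 CPM in RNA-Best libraries, with no overlap and a log2 fold change of -0.34 (standard error 0.06, edgeR adjusted p = 3.23e-05). *Bcl2l11*, which encodes Bim, lies on chromosome 2 from 128126038 to 128162547. It had 27.8, 29.3 and 28.9 CPM in fresh and 33.2, 30.1 and 27.4 CPM in RNA-Best libraries. RNA-Best replicates 1 and 2 were above all fresh libraries and replicate 3 was below them, so the groups overlapped and the log2 fold change of 0.05 (standard error 0.06) did not pass (edgeR adjusted p = 0.524). Without RNA-Best replicate 1 its sign turned, to -0.03 (edgeR adjusted p = 0.770). *Bid*, whose protein is cut by caspase 8 to join the death receptor arm to mitochondria, lies on chromosome 6 from 120891930 to 120916853. It had 5.23, 5.40 and 5.80 CPM in fresh and 5.93, 5.70 and 6.58 CPM in RNA-Best libraries, or as few as 28 counts in RNA-Best replicate 2. Its log2 fold change of 0.19 (standard error 0.12, edgeR adjusted p = 0.234) had an interval from -4.52% to 35.4%, the widest among the members tested.

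*Pmaip1*, which encodes Noxa and is known as a gene induced by stress and p53, lies on chromosome 18 from 66458533 to 66465565. It had 1, 3 and 0 counts in the fresh libraries and 0 counts in each RNA-Best library. Both groups were at or under the floor of 3 counts in a library, so the gene did not pass the filter on low counts and no fold change is given.

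Of the 9 members tested, 5 were lower in RNA-Best at an adjusted p under 0.05 from edgeR and 0 were higher. Over all 14736 genes tested, 50.8% passed this threshold, 24.8% as lower and 26.0% as higher. The share of members that passed, 55.6%, is therefore close to the background, and is no result about the members. With limma-voom, the method named in the study's methods, and the same threshold on the adjusted p alone, without the minimum fold change that the study also set, 5 members passed as lower and 0 as higher, and with DESeq2 the numbers were 4 and 0. Over all genes tested, 24.3% passed as lower with limma-voom and 18.7% with DESeq2. At an unadjusted p under 0.05 from edgeR, the number higher was also 0. The median log2 fold change of the members tested was -0.13, against -0.01 over all genes tested, where rises and falls cancel. Taken without sign, the median over all genes tested was 0.19, and 42.9% of them had a smaller change than the members' median without sign. The members thus did not change more than most genes. In 5 members all RNA-Best libraries lay below all fresh libraries and in 1 above them, while over all genes tested this held in 27.1% and 30.4%, or in 57.5% for either order. Against a 1.2-fold change tested by edgeR's glmTreat, *Bax* (adjusted p = 0.00946) and *Bad* (adjusted p = 0.00216) passed and *Bbc3*, *Bcl2l1* and *Bak1* did not, and over all genes tested 11.5% passed, 2.82% as lower.

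The spread between libraries differed among the 9 members tested. In fresh libraries the coefficient of variation ran from 0.748% for *Bax* to 5.37% for *Bid*, and in RNA-Best libraries from 1.97% for *Bcl2* to 9.51% for *Bcl2l11*. Counting error alone, computed from the counts of each library, would give 1.76% and 8.27% for *Bax* and *Bid* in fresh cells, and 6.63% and 6.64% for *Bcl2* and *Bcl2l11* in RNA-Best cells. Only 3 libraries stand behind each coefficient, so values under the counting error are within what so few libraries can give.

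Levels of different genes were compared per length, as CPM per kb of exonic sequence. In fresh cells *Bax* was highest at 78.4 ± 0.586 (SD, n = 3), followed by *Bak1* at 29.9 ± 0.694, *Bad* at 23.7 ± 0.929, *Bcl2l1* at 21.9 ± 0.199 and *Mcl1* at 20.3 ± 0.539. *Bbc3* stood at 13.7 ± 0.288, *Bcl2l11* at 3.57 ± 0.0967, *Bcl2* at 3.34 ± 0.0410 and *Bid* at 1.54 ± 0.0829 CPM per kb. *Bax* per kb was 23.5 ± 0.346 times *Bcl2* per kb in fresh and 18.3 ± 0.642 times in RNA-Best libraries (SD, n = 3 each), but 4.97 ± 0.0732 and 3.86 ± 0.136 times per kb of coding sequence, since most exonic sequence of *Bcl2* is not coding. In both groups no pair of neighbours in this order overlapped across libraries, although *Bcl2l11* and *Bcl2* in RNA-Best came close, at 3.41 CPM per kb in the lowest *Bcl2l11* library and 3.38 in the highest *Bcl2* library. The order differed between the groups in the middle. In RNA-Best cells *Bak1* was followed by *Mcl1* at 21.6 ± 0.472, *Bcl2l1* at 19.7 ± 0.873 and *Bad* at 17.5 ± 0.479 CPM per kb (SD, n = 3), so that *Mcl1* and *Bad* had changed places. The ratio of *Mcl1* to *Bcl2l1* per kb was 0.911 to 0.944 in fresh cells and 1.04 to 1.18 in RNA-Best cells. This crossing of 1 was seen with exonic length alone, as the mean ratio was 0.520 and 0.615 with the longest transcript and 0.487 and 0.577 with coding length. The order depends on the length used: with the longest transcript of each gene, *Bad* and *Bcl2l1* stood above *Bak1* in both groups, and with coding length *Bcl2l1* stood next after *Bax*, whereas *Bax* was highest and *Bid* lowest of the 9 members tested under each of the 3 lengths. The relative change of a ratio of 2 genes between the groups does not depend on which length divides the counts. The fold changes themselves moved with exonic length, as given below. *Bax* and *Bcl2* had log2 fold changes of -0.37 and -0.02 without an offset for exonic length, and of -0.26 and -0.24 with it.

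**Figure D2:**
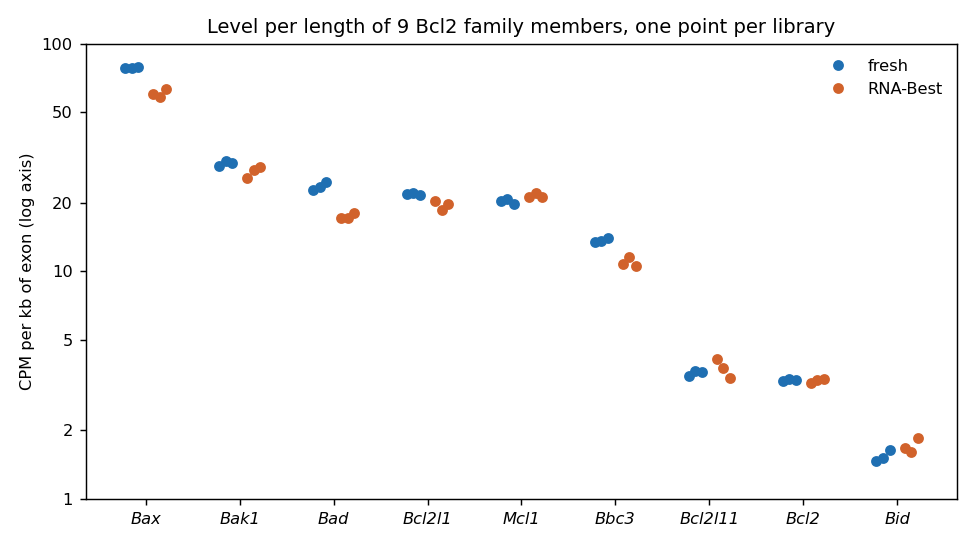
Level of 9 members in CPM per kb of exonic sequence (y axis, logarithmic), with 1 point for each library, fresh in blue and RNA-Best in orange, ordered by the fresh mean. *Bax* lies at 78.0 to 79.1 in fresh and 58.5 to 63.4 in RNA-Best cells, and *Bid* is lowest at 1.47 to 1.85 over all libraries.

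Summed by role, the survival genes had 45.5 ± 0.760 CPM per kb in fresh cells and 44.5 ± 0.393 CPM per kb in RNA-Best cells. The pore-forming genes had 108.2 ± 0.936 CPM per kb in fresh cells and 88.2 ± 3.58 in RNA-Best cells, and the BH3-only genes 42.5 ± 1.35 and 33.9 ± 0.217 CPM per kb (SD, n = 3 each). The ratio of the pore-forming to the survival sum was 2.35 to 2.43 in fresh and 1.91 to 2.07 in RNA-Best libraries. With coding length its mean was 1.28 ± 0.0213 in fresh and 1.10 ± 0.0472 in RNA-Best cells (SD, n = 3 each). The pore-forming sum was mostly *Bax*, at 78.4 CPM per kb of exon in fresh and 60.7 in RNA-Best cells, against 29.9 and 27.5 for *Bak1*. With the offset for exonic length given below, *Bax* had a log2 fold change of -0.26 and *Bak1* of -0.06. The survival genes had -0.24 (*Bcl2*), -0.20 (*Bcl2l1*) and 0.08 (*Mcl1*) there. These sums describe RNA only and were not tested, since they were built from the members.

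Members that were lower in RNA-Best had GC-rich transcripts. Taken over the longest transcript of each gene, GC content was 55.9% to 65.2% in the 5 members called lower and 46.3% to 51.3% in the 4 that did not pass. Over the coding sequence alone, the ranges of 55.9% to 72.2% and 53.5% to 64.7% overlapped, since *Bcl2* at 61.0% and *Mcl1* at 64.7% have GC-rich coding sequence within transcripts of lower GC content. Exonic length also differed, from 1576 to 4586 bases in the members called lower and from 3418 to 9157 bases in the others. Both properties moved with the fold change in the whole table. The median log2 fold change of all genes tested was -0.18 at 1 to 2 kb of exon, -0.10 at 2 to 4 kb and 0.09 at 4 to 10 kb, and it was 0.04 at a GC content of 45 to 50% and -0.16 over 60%. Among the genes over 60% GC, where *Bax* at 63.5% and *Bbc3* at 65.2% belong, 43.3% were called lower, and among those of 55 to 60%, where *Bcl2l1*, *Bak1* and *Bad* belong, 38.4%.

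**Figure D3:**
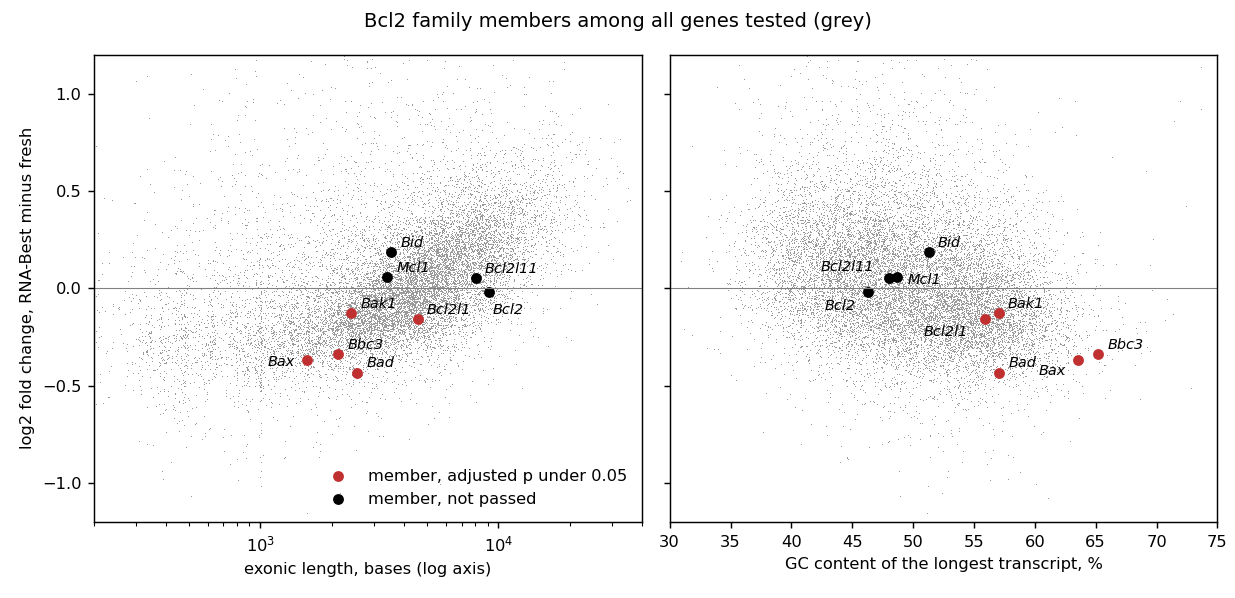
Log2 fold change, RNA-Best minus fresh (y axis), against exonic length in bases (left, logarithmic axis) and GC content of the longest transcript in percent (right). Grey points are all genes tested within the axis limits, red points the 5 members called lower and black points the 4 that did not pass, which lie to the left of the red points in GC content.

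With an offset for exonic length in each library, the members called were *Bax* at -0.26, *Bad* at -0.37, *Bbc3* at -0.26, *Bcl2l1* at -0.20 and *Bcl2* at -0.24 (edgeR adjusted p = 5.27e-07, 1.40e-07, 0.00130, 7.28e-05 and 0.000755). Over all genes, 40.8% were called with this offset, 15.6% as higher and 25.3% as lower. *Bcl2*, whose exons span 9157 bases, was thus called lower only relative to genes of its length, and *Bak1* was no longer called at -0.06 (edgeR adjusted p = 0.318). *Bcl2l11*, with exons of 8029 bases, turned to -0.13 (edgeR adjusted p = 0.0899). With an offset for GC content, *Bax* at -0.23, *Bad* at -0.35, *Bbc3* at -0.20 and *Bcl2l1* at -0.09 stayed lower (edgeR adjusted p = 2.62e-06, 1.31e-07, 0.00809 and 0.0459). Over all genes, 48.2% were called with this offset, 21.9% as higher and 26.3% as lower. *Bak1* was not called at -0.04 (edgeR adjusted p = 0.450), and *Bcl2* had -0.11 (edgeR adjusted p = 0.111). *Bax*, *Bad*, *Bbc3* and *Bcl2l1* were therefore called lower without an offset and with each of them, and the part of length or GC content in their remaining difference was not tested.

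**Figure D4:**
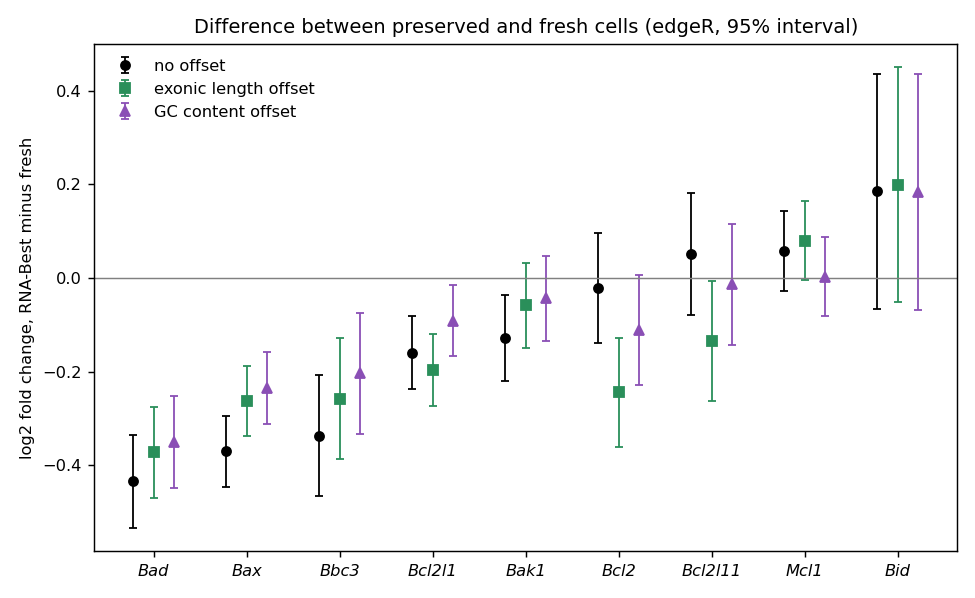
Log2 fold change, RNA-Best minus fresh (y axis), of 9 members from edgeR with 95% intervals, without an offset (black circles), with an offset for exonic length (green squares) and with an offset for GC content (purple triangles). The intervals of *Bad*, *Bax*, *Bbc3* and *Bcl2l1* lie under 0 in all 3 fits, whereas *Bcl2* moves from -0.02 to -0.24 with the length offset.

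Some members share exonic sequence with other genes, and how reads on shared sequence or of either strand were counted is not stated. Exons of *Bid* share 628 bases with *Bcl2l13* on the opposite strand, another family member, which had 88.8 CPM in fresh and 93.6 CPM in RNA-Best libraries, far above *Bid* itself. *Bad* shares 524 bases with *Gpr137* (30.4 and 27.8 CPM) and *Bak1* 437 bases with *Ggnbp1* (5.95 and 6.60 CPM), both on the opposite strand. *Bcl2* shares 558 bases with *D630008O14Rik*, an antisense gene at 0.0230 CPM in fresh and 0.0278 CPM in RNA-Best cells. *Bax* shares 192 bases with *Gm45808* on the same strand, a gene of GENCODE M21 that is absent from the count table. Counts that differed from a whole number by more than 0.001 were present for *Bad* in 3, *Mcl1* and *Bak1* in 2 and *Bcl2l1* and *Bax* in 1 of the 6 libraries, while all counts of *Bid* were whole. The values of members that share exonic sequence or have parts of counts are uncertain to that extent.

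Over the 6 libraries, the genes whose log2(CPM + 1) followed *Bcl2* most closely were *Efemp2* (Pearson r = 0.987), *Utp23* (r = 0.972) and *Cbll1* (r = 0.948). They were the closest of 14736 genes, the points share libraries and depth, and the spread of *Bcl2* itself was under its counting error in both groups, so that the likeness is a description only. None of these 3 genes passed the test between the groups (edgeR adjusted p = 0.918, 0.902 and 0.790).

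Other genes of the pathway were taken as lists: 68 genes, of which 58 were tested, 12 higher and 20 lower in RNA-Best. The share called, 55.2%, is close to the 50.8% over all genes tested, of which 26.0% were higher and 24.8% lower, and each list below holds few genes. Counts by list without an offset stand against those shares, and counts with the length or GC offset against the shares given above for the same offset. Among 16 further family genes, 8 passed the filter on low counts, 1 was lower and 0 were higher, against 2 lower and 1 higher with the length offset and 2 and 0 with the GC offset. The 1 called was *Bok*, a relative of *Bax* and *Bak1*, at 5.05 ± 0.332 CPM in fresh and 3.30 ± 0.602 CPM in RNA-Best libraries (SD, n = 3), a log2 fold change of -0.53 (edgeR adjusted p = 0.00378). *Bnip3*, a mitochondrial BH3-like gene with the highest level of the list, had 259.7 ± 5.41 and 276.6 ± 18.2 CPM (SD, n = 3) and did not pass at a log2 fold change of 0.07 (edgeR adjusted p = 0.0817). It was called higher with the length offset, at 0.15 (edgeR adjusted p = 0.000750), and had -0.08 with the GC offset (edgeR adjusted p = 0.0739).

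Downstream of the pore, 13 genes of the apoptosome and the caspases were tested, of which 2 were higher, 4 lower and 7 did not pass, against 1 higher and 4 lower with the length offset and 1 and 3 with the GC offset. *Cycs*, which encodes the cytochrome c that *Bax* and *Bak1* release, had 112.7 ± 2.39 CPM in fresh and 91.7 ± 6.39 CPM in RNA-Best libraries (SD, n = 3), a log2 fold change of -0.31 (edgeR adjusted p = 1.17e-07) that was -0.46 with the GC offset. *Apaf1*, which binds cytochrome c to build the apoptosome, rose by 0.32 on the log2 scale (edgeR adjusted p = 0.000313), but it did not pass with the length offset, at 0.10 (edgeR adjusted p = 0.281), and passed with the GC offset, at 0.22 (edgeR adjusted p = 0.00909). *Endog*, a mitochondrial nuclease, had a log2 fold change of -0.31 (edgeR adjusted p = 0.0497) with groups that overlapped, and it was not called with either offset, at -0.18 in both (edgeR adjusted p = 0.295 for length and 0.270 for GC). Of the 5 inhibitor of apoptosis genes, which encode proteins that block caspases, 4 were higher and 1 lower, against 3 and 1 with the length offset and 2 and 1 with the GC offset. *Birc6*, with exons of 25772 bases, was higher by 0.61 on the log2 scale, by 0.10 with the length offset and by 0.53 with the GC offset (edgeR adjusted p = 4.19e-17, 0.00778 and 1.31e-16). *Birc5* (survivin) fell by 0.10 on the log2 scale, and by 0.18 with the GC offset (edgeR adjusted p = 0.00583 and 7.86e-06).

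Of 6 genes of the outer membrane in which the family acts, 5 were lower and 0 higher, as with the length offset, against 6 and 0 with the GC offset. *Vdac1*, the most abundant channel of that membrane, had 464.0 ± 9.89 CPM in fresh and 428.2 ± 10.3 CPM in RNA-Best libraries (SD, n = 3), a log2 fold change of -0.12 (edgeR adjusted p = 0.000375), and it was not called with the length offset, at -0.06 (edgeR adjusted p = 0.0670). *Tomm22*, a part of the protein import channel, fell by 0.28 and *Mtch2*, a docking protein of Bid, by 0.08 on the log2 scale (edgeR adjusted p = 2.77e-08 and 0.0382). With the length offset *Tomm22* had -0.18 and *Mtch2* -0.29, and with the GC offset -0.38 and -0.22, all called. Of 5 genes whose products control the turnover of the Mcl1 protein, 4 were tested, 3 were higher and 0 lower, against 2 and 0 with the length offset and 2 and 1 with the GC offset. *Huwe1*, a ubiquitin ligase of Mcl1, was higher by 0.63 on the log2 scale, and *Fbxw7*, a further ligase subunit, by 0.24 (edgeR adjusted p = 2.06e-19 and 0.00636). Exons of *Huwe1* span 23507 bases, and with the length offset its value was 0.14 (edgeR adjusted p = 6.75e-05), while *Fbxw7* did not pass at 0.10 (edgeR adjusted p = 0.318). With the GC offset *Huwe1* had 0.57 (edgeR adjusted p = 1.56e-19) and *Fbxw7* did not pass at 0.16 (edgeR adjusted p = 0.0780).

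**Figure D5:**
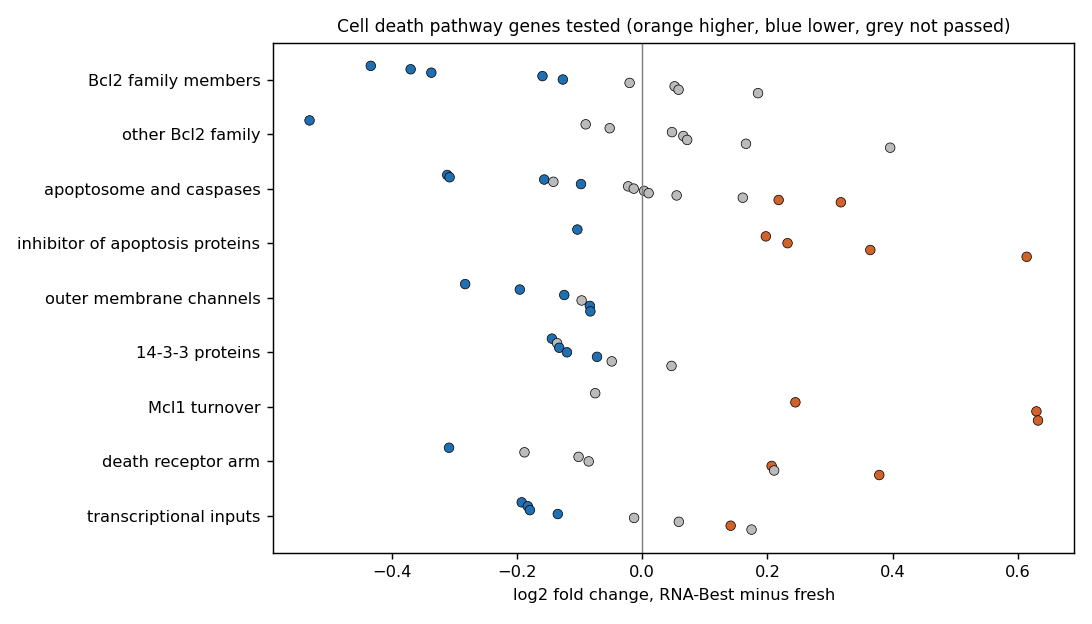
Log2 fold change, RNA-Best minus fresh (x axis), of the 9 Bcl2 family members tested and of 58 other genes in 8 lists (rows), with 1 point for each gene, orange if higher, blue if lower and grey if not passed at an adjusted p under 0.05 from edgeR. The members reach from -0.43 to 0.19, and the genes furthest to the right, at 0.61 to 0.63, are *Birc6*, *Huwe1* and *Usp9x*, the last named after its value was seen.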

How the data were processed

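Total RNA from 3 fresh and 3 RNA-Best samples was sequenced by the authors as single reads after poly(A) selection. Per the labels and methods, the authors used STAR 2.5.1b on GRCm38 and featureCounts 1.5.0-p1, and they deposited expected counts per gene without scaling. The setting that divided some reads is not given in the sources used here.

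Counts were rounded and tested with edgeR 4.0.16 in R 4.3.3 (quasi-likelihood, TMM, filterByExpr with minimum count 10) over 14736 genes, with Benjamini-Hochberg adjustment. limma 3.58.1 (voom), DESeq2 1.42.0, other scalings, filters, offsets (loess, span 0.5), a block, thinning and left-out libraries were alternatives. The test was checked on simulated counts of 14736 genes, with 50 genes changed at each size. It recovered 60% of 1.2-fold, 80% of 1.5-fold, 94% of 2-fold and 96% of 4-fold changes, with 6 false calls. Differences of the size seen in most members can therefore be missed.

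Lengths, positions and coding sequences came from GENCODE M21, later than the authors' M8. CPM used column totals.

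The members and lists were chosen with earlier results of these data known. All members are named, and of each other list the most abundant gene and the largest and smallest fold change among those called, plus genes sharing exons with members and marker genes. The 3 genes most like *Bcl2* were named by Pearson's r. Libraries of a group differed by more than sampling noise, by less in RNA-Best (chi-square per gene 1.10 to 1.30) than in fresh (1.74 to 2.04). Each was counted as 1 library. These values cannot tell separate cultures from separate preparations of 1 culture.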

Additional observations from a re-analysis of the deposited data

How the results depend on the processing

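Over all alternatives, 146 of 162 member log2 fold changes kept their direction and side of the threshold. Of 72 counts of genes called, 69 stayed within 1.5 times. Among these, the number of other pathway genes called ran from 26 to 35. It was 26 with DESeq2, where 5955 of 14736 genes were called over all, and 26 after thinning, where 5285 of 12993 were. It was 35 with no filter on low counts, where 7637 of 27250 genes were called over all. Single genes of the lists were followed under the 2 offsets only. Testing against a 1.2-fold change with glmTreat left 2 members called, both lower, and 4 other pathway genes, against 32 without that threshold and 11.5% of all genes with it, and *Bcl2l1* (-0.16), *Bak1* (-0.13) and *Bbc3* (-0.34) did not pass there. *Bak1* was not called by DESeq2 (-0.13), the length offset (-0.058), the GC offset (-0.043) or after thinning (-0.11). *Bcl2* passed as lower with the length offset (-0.24). *Bcl2l11* turned negative with the length offset (-0.13), the GC offset (-0.014) and without RNA-Best replicate 1 (-0.031). The cause was not tested. With single libraries left out, *Bak1* lay between -0.18 and -0.074, *Bcl2l11* between -0.031 and 0.15, and 4 to 5 members were called, all lower. Over all genes in these fits, the calls ran from 6357 of 15010 without RNA-Best replicate 3 to 7273 of 14745 without fresh replicate 3. The number of members called is therefore no result about the members.

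Deviations from the group means were nearly uncorrelated between like-numbered libraries (-0.00563, 0.0355 and 0.00243 across genes), so that no pairing was seen. Counting noise is part of each deviation, so these values cannot tell whether like-numbered libraries shared a culture or a day. With the replicate block, 5 members were called, all lower, and 7472 genes against 7479. With replicate block and length offset, *Bcl2* was -0.25 (called), *Bak1* -0.059 (not called) and *Bcl2l11* -0.12.

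The share of all calls that were higher in RNA-Best was 51.2%, but 38.1% with the length offset, 37.6% with the block and length offset, 75.4% under glmTreat and 42.6% with no filter. The order by level per length, by the mean over all 6 libraries, kept 6 of 10 places with the longest transcript and 4 with coding length, an alternative chosen after seeing the data. In fresh cells alone 7 places were kept with each, and in RNA-Best cells 6 and 4. RefSeq protein lengths were not run. Counts were few for *Pmaip1* (0 to 3 in a library) and *Bid* (28 to 256), and after thinning to the smallest library *Bid* had 0.075 (edgeR adjusted p = 0.821) against 0.19.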

Other observations

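Genes that feed into the family from outside the mitochondrion were also measured, and the counts by list stand against 26.0% higher and 24.8% lower over all genes tested, or 15.6% and 25.3% with the length offset and 21.9% and 26.3% with the GC offset. Of 8 genes of the death receptor arm, 7 were tested, of which 2 were higher and 1 lower in RNA-Best, against 1 and 1 with the length offset and 1 and 2 with the GC offset. *Ripk1*, a kinase of the receptor complexes, had 27.8 ± 0.407 CPM in fresh and 35.9 ± 3.03 CPM in RNA-Best libraries (SD, n = 3), a log2 fold change of 0.38 (edgeR adjusted p = 1.27e-06) that was 0.18 with the length offset (edgeR adjusted p = 0.0108). *Fadd*, the adaptor that recruits caspase 8, had 28.3 ± 1.05 and 22.7 ± 1.84 CPM (SD, n = 3), a log2 fold change of -0.31 (edgeR adjusted p = 0.000214). Of 7 genes for 14-3-3 proteins, which bind phosphorylated Bad, 4 were lower and 0 higher, as with the GC offset, against 3 and 0 with the length offset. *Ywhae* fell by 0.14 and *Ywhab* by 0.07 on the log2 scale (edgeR adjusted p = 3.69e-05 and 0.0228). With the length offset *Ywhae* had -0.08 and *Ywhab* did not pass at -0.05 (edgeR adjusted p = 0.0215 and 0.154), and with the GC offset they had -0.27 and -0.15, both called. Of 8 transcription factors known to control members of the family, 1 was higher and 4 were lower, against 0 and 4 with the length offset and 1 and 3 with the GC offset. *Foxo3*, an activator of *Bcl2l11* and *Bbc3*, was higher by 0.14 on the log2 scale (edgeR adjusted p = 0.0160), but it had -0.03 with the length offset (edgeR adjusted p = 0.702) and 0.17 with the GC offset (edgeR adjusted p = 0.00343). *Atf4*, the most abundant of the list, had 889.6 ± 17.6 CPM in fresh and 784.6 ± 13.4 CPM in RNA-Best libraries (SD, n = 3), a log2 fold change of -0.19 (edgeR adjusted p = 2.09e-07) that was -0.12 with the length offset and -0.13 with the GC offset, both called.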
